A study of Mus musculus with 2 samples.

Results

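Tenocytes, the resident cells of tendon, were picked out of a droplet library of GFP+ cells from denervated mouse muscle by the RNA of their marker genes. A barcode counted as a tenocyte when it held at least 2000 unique molecular identifiers (UMIs, 1 per captured RNA molecule), had less than 10% of them in mitochondrial genes, carried 4 or more UMIs over at least 2 of Tnmd, Kera, Chad, Scx, Comp and Cilp2, and had more UMIs of the stromal genes Col1a2, Col3a1, Dcn and Fmod than of the myeloid genes Tyrobp and Fcer1g. The rule was met by 1325 of the 18579 barcodes that passed the depth and mitochondrial filter, a share of 7.13% (95% exact Clopper-Pearson interval 6.77 to 7.51%), out of 36400 barcodes in the library. Because these 12 genes chose the cells, their levels are given as a description and support no comparison.

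The cells came from the tibialis anterior and gastrocnemius of S100GFPtg mice labelled WT, 2 months old and male, taken 7 days after the sciatic nerve had been crushed. These mice express enhanced GFP from the S100B promoter, so that Schwann cells fluoresce, and all cells described here were sorted as GFP+ and negative for the dead-cell stain propidium iodide. The sources disagree on whether 1 mouse or several pooled mice were used, and the library has no replicate, no uninjured counterpart analysed here and therefore no test. Every interval is a 95% interval for counting error only, either exact Poisson for a level, exact binomial for a share, or exact conditional for a ratio of 2 levels.

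Tenocytes lie in rows between the collagen fibres that carry the force of muscle to bone, and they make and maintain that matrix. The basic helix-loop-helix factor Scx and the homeobox factor Mkx drive tendon genes such as Tnmd, a membrane glycoprotein found mostly in tendon and ligament. Type I collagen forms the fibrils, whose width and spacing are set by collagens V, XI and XII and by small leucine-rich proteoglycans such as decorin, fibromodulin and keratocan. Inside a limb muscle the tendon continues as an internal sheet, and at its tip, the myotendinous junction, muscle fibres end on tendon collagen.

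The upstream sequences of 4 genes are shown because the description turns on them: Tnmd as the marker found in most members, and Thbs4, Angptl7 and Wif1 as genes that the rule did not use and that stood high in the members. Each line gives the 250 bases before the start of the gene, 5' to 3' on the gene's strand, from RefSeq on build GRCm38.p6. Capitals mark CANNTG, the E-box that basic helix-loop-helix factors such as Scx can bind, which reads the same on both strands.
Tnmd, chrX:133850758-133851007, plus strand: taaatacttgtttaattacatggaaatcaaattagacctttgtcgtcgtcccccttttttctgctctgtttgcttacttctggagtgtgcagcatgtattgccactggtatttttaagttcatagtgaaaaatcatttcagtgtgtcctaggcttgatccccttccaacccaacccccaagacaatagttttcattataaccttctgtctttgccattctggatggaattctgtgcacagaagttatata
Thbs4, chr13:92794819-92795068, minus strand: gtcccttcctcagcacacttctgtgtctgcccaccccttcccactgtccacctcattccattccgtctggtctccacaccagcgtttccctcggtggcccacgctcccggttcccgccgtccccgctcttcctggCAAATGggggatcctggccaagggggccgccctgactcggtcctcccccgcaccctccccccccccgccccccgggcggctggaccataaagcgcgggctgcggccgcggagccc
Angptl7, chr4:148500463-148500712, minus strand: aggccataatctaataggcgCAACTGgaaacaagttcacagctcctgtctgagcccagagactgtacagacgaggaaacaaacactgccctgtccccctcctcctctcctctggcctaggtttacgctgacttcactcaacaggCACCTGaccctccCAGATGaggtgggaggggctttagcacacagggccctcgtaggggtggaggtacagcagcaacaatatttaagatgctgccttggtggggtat
Wif1, chr10:121033754-121034003, plus strand: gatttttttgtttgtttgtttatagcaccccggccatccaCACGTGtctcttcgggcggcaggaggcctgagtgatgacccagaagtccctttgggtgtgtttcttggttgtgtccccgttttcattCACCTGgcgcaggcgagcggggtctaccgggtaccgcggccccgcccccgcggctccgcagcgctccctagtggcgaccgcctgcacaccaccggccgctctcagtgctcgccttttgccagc

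Angptl7 held 3 of these motifs, Wif1 2, Thbs4 1 and Tnmd none in the window. The motif was present in 66.1% of the 27018 promoter windows of the same length, and the form CATCTG or CAGATG, which occurred once among the printed sequences, 93 bases before the start of Angptl7, was present in 14.5%. Tnmd lies on chromosome X from 133851008 to 133865577, Thbs4 on chromosome 13 from 92751586 to 92794818, Angptl7 on chromosome 4 from 148495181 to 148500462 and Wif1 on chromosome 10 from 121034004 to 121100642. A match describes these letters and does not show that a factor was bound.

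The members carried between 2001 and 64696 UMIs, with a median of 3780 and a sum of 9028936. Of these cells 519, or 39.2%, had at least 5000 UMIs, and this deeper group held 73.4% of all UMIs of the members. A median member had UMIs of 1796 genes and 4.09% of its UMIs in the 13 mitochondrial genes. The list of cell barcodes shared 372 entries with that of the GFP- library from the same preparation, and 13 of the members were among them. Expression in the GFP- fraction was not analysed here.

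The 6 tendon genes of the rule stood as the rule fixed them, high in the members and low in a fibroblast pool from which tenocytes were left out, and their levels are given only to show the size. Levels below are CPM, the UMIs of a gene per 1000000 UMIs pooled over a gate, and the gates for other cell types were built in the same way from their own marker genes. Tnmd stood at 1130.0 CPM in the tenocytes and 12.9 CPM in 5230 fibroblast-gate cells, which carried at least 4 UMIs over 2 or more of Pdgfra, Dpt, Clec3b, Smoc2, Pi16 and Lum, were stromal by the same genes and did not meet the tenocyte rule. Kera, which encodes keratocan, stood at 662 against 2.89 CPM, and Chad, the leucine-rich cell-binding protein chondroadherin, at 1472 against 5.72 CPM. Scx stood at 316 against 2.83 CPM. Comp, the pentameric cartilage oligomeric matrix protein, stood at 1271 against 69.9 CPM and Cilp2 at 701 against 3.03 CPM. The summed level of Tnmd, Kera, Chad, Scx and Comp was 4851 CPM in the tenocytes, 94.2 CPM in the fibroblast gate, 20.0 CPM in 132 endothelial-gate cells and 8.37 CPM in 8998 macrophage-gate cells.

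Single members were less complete than the pool. All 6 gate genes were detected in 244 members, 5 in 267, 4 in 324, 3 in 323 and 2 in 167. To compare shares at equal depth, every cell was thinned to 2000 UMIs. Tnmd was then found in 68.5% of the members (65.9 to 70.9%), compared with 80.5% before thinning. Chad was found in 66.2%, Comp in 65.7%, Cilp2 in 54.3%, Kera in 43.2% and Scx in 30.0% of the thinned members. Droplets also pick up free RNA, so the share of macrophages with a UMI served as background, and it was 0.745% for Tnmd, at a median depth of 8867 UMIs before thinning.

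Of the members 174 had exactly 4 UMIs of the gate genes, the median was 10 and the highest 473, and 446 members had 20 or more. Among the 174 members just inside, the rule's own gene Fmod stood at 1186 CPM, compared with 874 CPM in the 200 barcodes with 3 gate UMIs just outside. Among genes that the rule did not use, Mkx stood at 39.7 CPM inside and 24.5 CPM outside, Angptl7 at 557 CPM (498 to 621) and 342 CPM (300 to 388), and Thbs4, the matrix glycoprotein thrombospondin-4, at 1374 and 1189 CPM. Pdgfra, the fibroblast receptor, stood at 169 and 180 CPM, and the macrophage lysozyme Lyz2 at 4000 and 3450 CPM. In the 446 members with 20 or more gate UMIs Mkx stood at 287 CPM, Thbs4 at 8350 CPM, Pdgfra at 40.1 CPM and Lyz2 at 895 CPM. These 446 cells were also the deeper ones, with a median of 11894 UMIs against 2779 UMIs in the members at the threshold.

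**Figure D1:**
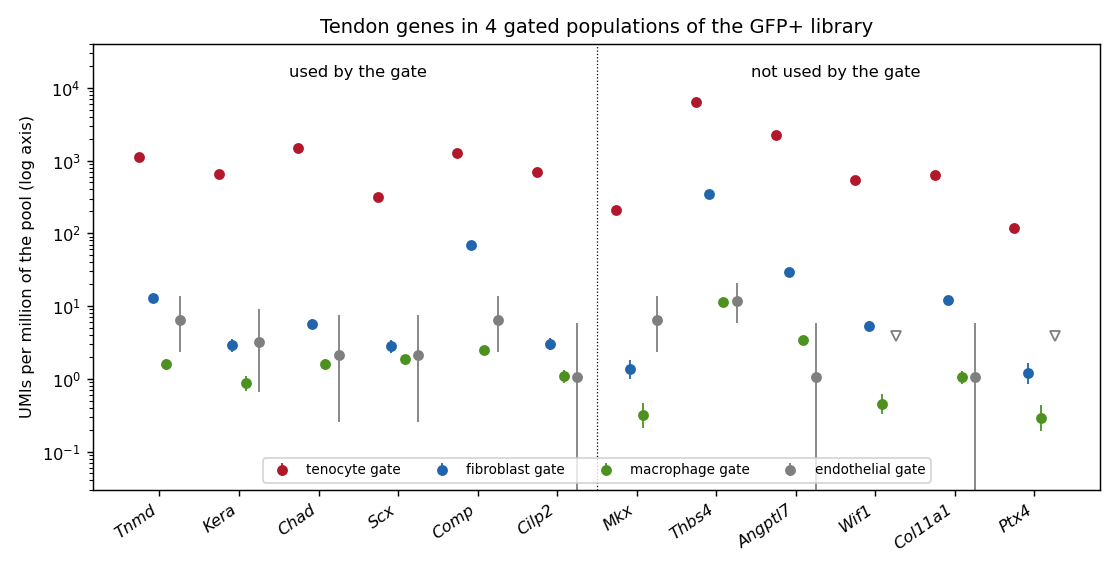
Levels of tendon genes in the tenocyte, fibroblast, macrophage and endothelial gates, in CPM on a log axis; points are pooled levels, bars are 95% exact Poisson intervals and open triangles are upper bounds where a pool held no UMI. Genes that the rule used stand highest in the tenocyte gate because they chose its cells. Genes shown that the rule did not use also stood highest there, as with Thbs4 at 6279.6 CPM against 342 CPM in the fibroblast gate.

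RNA of other cell types was present in the members and varied with depth. The 12 macrophage markers summed to 11939 CPM in members under 5000 UMIs and to 3154 CPM in deeper members, against 11226 and 2090 CPM in fibroblast-gate cells of the same depths and 29812 CPM in the macrophage gate. None of the 12 was at 0, and the complement gene C1qa was found in 53.2% of the thinned members and in 84.1% of the thinned macrophages. The 10 smooth muscle and pericyte markers summed to 318 CPM in the tenocytes and 181 CPM in the fibroblast gate, and the 10 erythroid and neutrophil markers to 1870 and 1079 CPM. In cells of 5000 UMIs or more this last list summed to 1455 and 203 CPM. Its sum was uneven among the members, at 70432 CPM in a subset of 38 cells, 4001 CPM in one of 154 cells, where 95.8% of the Hbb-bs UMIs lay in 1 cell, and 9.69 CPM in one of 215 cells. The 10 endothelial markers summed to 135 CPM, against 20628 CPM in the endothelial gate, and the 12 satellite cell and muscle fibre markers to 208 CPM, against 170 CPM in the fibroblast gate. Of the 1325 members 471, or 35.5%, also carried enough fibroblast gate genes to meet that rule. The part of this RNA in the results below was not tested.

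Schwann cell genes, for which the reporter was designed, were close to absent. The 12 Schwann cell markers summed to 332 CPM in the tenocytes and 348 CPM in the fibroblast gate, and 283 CPM of the former was Pmp22, which many other cells also express. Of the other markers the transcription factor Sox10 stood at 0.775 CPM, Mal was at 0 and 10 of the 12 were under 10 CPM. The 10 perineurial and endoneurial markers summed to 1925 CPM, of which Apod, a lipid carrier that fibroblasts also make, gave 1804 CPM, and to 2379 CPM in the fibroblast gate.

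The fibroblast gate served as the reference, and the 2 pools were compared gene by gene over the 9270 genes with at least 10 CPM in either pool and 100 UMIs in both pools together. In the tenocytes 486 genes were at least 2-fold higher, 5.24% of those compared, and 634 were at least 2-fold lower, 6.84%. The median log2 ratio over all compared genes was 0.02. Among genes that neither gate used, the largest ratios were led by transcripts of low level. Wfdc2, a secreted protease inhibitor, stood at 19.6 CPM against 0.0875 CPM, the latter from 3 UMIs, a log2 ratio of 7.81 (6.24 to 10.10). Gpha2, a glycoprotein hormone subunit, stood at 47.8 against 0.262 CPM and Uts2r, the urotensin receptor, at 34.4 against 0.204 CPM. Ooep at 7.05, the predicted gene Gm2350 at 7.02 and Ucma, a secreted cartilage protein, at 7.00 completed the low-level genes among the 12 with the highest log2 ratios.

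The other 6 of these 12 are on the lists of tendon transcription factors, tendon-enriched matrix and secreted genes, or collagens. Mkx stood at 209 CPM in the tenocytes and 1.34 CPM in the fibroblast gate, a log2 ratio of 7.28 (6.86 to 7.74). Col22a1, the collagen of the myotendinous junction, stood at 162 against 1.55 CPM (6.72, 6.32 to 7.14), Ptx4, a pentraxin, at 118 against 1.20 CPM (6.63, 6.18 to 7.12) and Col11a2, a chain of the fibril-nucleating collagen XI, at 148 against 1.87 CPM (6.31, 5.95 to 6.69). Wif1, a secreted inhibitor of Wnt ligands, stood at 547 against 5.40 CPM, a log2 ratio of 6.66 (6.45 to 6.88). Angptl7, a secreted angiopoietin-like protein, stood at 2212 against 29.0 CPM (6.26, 6.16 to 6.35). After thinning, Mkx was found in 21.2% of tenocytes, 0.459% of fibroblast-gate cells and 0.122% of macrophages, Wif1 in 38.4%, 1.13% and 0.244%, and Angptl7 in 66.7%, 5.79% and 1.10%.

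The genes furthest below the fibroblast gate were of another kind. Fetub, the protease inhibitor fetuin-B, stood at 0.886 CPM in the tenocytes and 31.2 CPM in the fibroblast gate, a log2 ratio of -5.14 (-6.35 to -4.15). The complement regulator gene Cd55b had a log2 ratio of -4.46, the phosphodiesterase gene Pde11a of -4.14, Prdm6 of -3.78, Gm15675 of -3.76 and Adamts16 of -3.67. Sv2c, a synaptic vesicle protein gene, stood at 5.32 against 63.7 CPM and the chemokine gene Cxcl9 at 4.54 against 52.6 CPM. The noradrenaline transporter gene Slc6a2 and the adrenergic receptor gene Adra1b had log2 ratios of -3.49 and -3.34. Inmt, a methyltransferase gene, stood at 13.1 against 127 CPM, and Hs3st1 had a log2 ratio of -3.28.

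**Figure D2:**
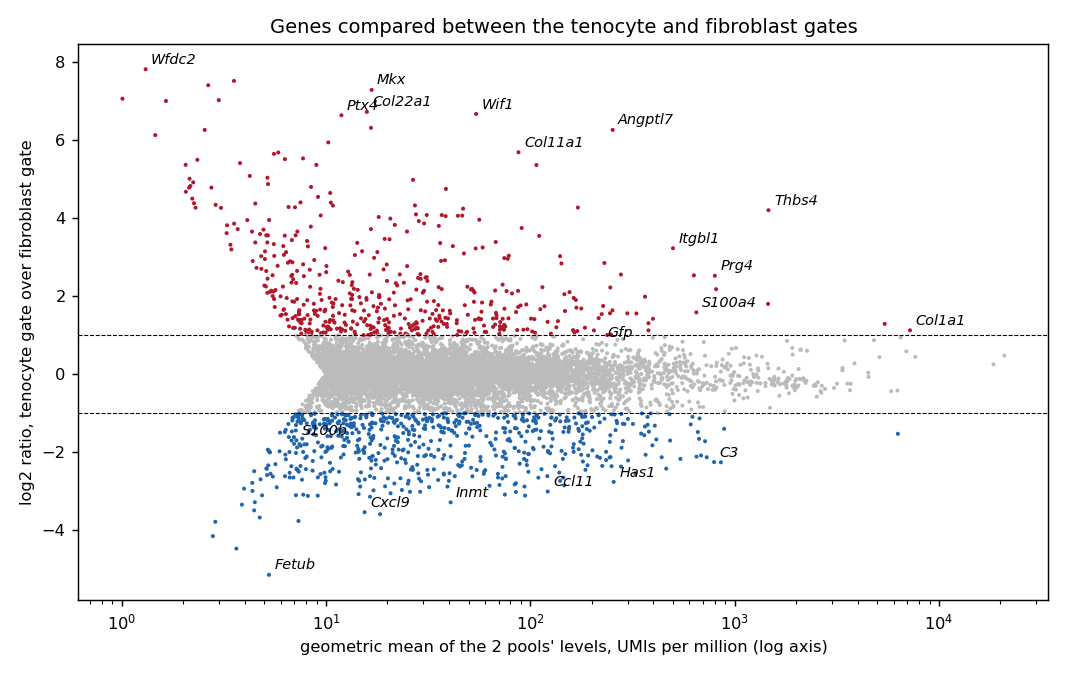
Log2 ratio of tenocyte to fibroblast gate (vertical) against the geometric mean of the levels in both pools (horizontal, CPM, log axis) for the 9270 compared genes; red points are the 486 genes at least 2-fold higher, blue points the 634 at least 2-fold lower, and dashed lines mark 2-fold. Thbs4 and Angptl7 combine a high level with a high ratio, Mkx, Wif1 and Col22a1 have the higher ratios at lower levels, and Fetub is the lowest point.

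Of 12 tendon transcription factors compared, 3 were past 2-fold higher and 0 lower, with a median log2 ratio of 0.24. The 3 were Mkx, the homeobox factor Six2 at 12.3 against 0.408 CPM and the ETS factor Etv4 at 18.1 against 2.89 CPM. Egr1, a factor induced by tendon loading, stood at 1779 against 1938 CPM and Tcf4 at 727 against 509 CPM. Klf4 stood at 516 against 851 CPM, a log2 ratio of -0.72 (-0.77 to -0.68).

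Of 19 genes of tendon matrix and secreted products 16 were past 2-fold higher and 1 lower, with a median log2 ratio of 2.85. The list was chosen with earlier results of these data known, and the members by other tendon genes. The fibroblast gate left out barcodes that met that rule, so counts of this list, here and below, are a description. Thbs4 stood at 6279.6 CPM against 342 CPM, a log2 ratio between 4.17 and 4.23, and was found in 92.1% of thinned tenocytes, 24.4% of fibroblast-gate cells and 3.76% of macrophages. Col1a1, the main chain of type I collagen, stood at 10665 against 4893 CPM (1.12, 1.11 to 1.14). Col14a1, the fibril-associated collagen XIV, was the lower member, at 111 against 566 CPM.

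Among 9 fibrillar collagen genes that no gate used, 5 were past 2-fold higher and 3 lower, with a median of 1.12. Col11a1 stood at 627 against 12.2 CPM, a log2 ratio of 5.68 (5.54 to 5.83), and Col2a1, the cartilage collagen, at 15.4 against 1.23 CPM (3.65, 3.15 to 4.19). The type V chains went the other way, with Col5a1 at 143 against 424 CPM, Col5a3 at a log2 ratio of -1.73 and Col5a2 at 449 against 841 CPM, the last short of 2-fold. The rule's own genes Col1a2 and Col3a1 stood at 9890 against 4800 CPM and 1896 against 7922 CPM.

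Among 15 fibril-associated and network collagens, 4 were higher and 5 lower, with a median of -0.18. Beside Col22a1 the higher genes were Col12a1, which lies on the fibril surface, at 619 against 85.9 CPM (2.85, 2.78 to 2.91), the transmembrane collagen Col13a1 at 39.3 against 0.787 CPM and Col8a2 at 73.1 against 4.49 CPM. The lower genes included Col6a6 at a log2 ratio of -2.88, Col15a1 at -1.89 and the basement membrane chain Col4a1 at -1.30. Col6a1 and Col6a2, the main chains of the collagen around cells, stayed within 2-fold, at 621 against 702 CPM and 349 against 389 CPM.

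Proteoglycans and collagen-processing enzymes showed single genes apart from their group. Of 7 small leucine-rich proteoglycans 3 were higher and 1 lower, with a median of 0.65. Prelp stood at 673 against 115 CPM (2.55, 2.49 to 2.61) and Omd, osteomodulin, at 70.9 against 23.0 CPM, while Podn stood at 35.9 against 160.1 CPM. Biglycan, from Bgn, was within 2-fold, at 876 against 1266 CPM. Of 26 genes for collagen maturation and crosslinking 4 were higher and 3 lower, with a median of 0.37. The prolyl 3-hydroxylase gene P3h2 stood at 180.4 against 10.8 CPM (4.06, 3.89 to 4.22), the procollagen protease gene Adamts3 at 219 against 21.0 CPM (3.38, 3.26 to 3.51) and the crosslinking enzyme gene Lox at 652 against 244 CPM (1.42, 1.37 to 1.47). The prolyl 4-hydroxylase subunit gene P4ha2 was lower, at 10.8 against 41.3 CPM. Serpinh1, the collagen chaperone, and Pcolce, the procollagen protease enhancer, were within 2-fold, at 789 against 673 CPM and 663 against 569 CPM.

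Of 19 thrombospondins and other matricellular genes 9 were higher and 5 lower, with a median of 0.94. Ccn2, a target of the mechanosensitive YAP pathway, stood at 1520 against 263 CPM (2.53, 2.49 to 2.57), and the matrilins Matn3 and Matn4 at 42.4 against 0.933 CPM and 130.2 against 13.4 CPM. Sparc, a collagen-binding protein gene, was within 2-fold, at 9025 against 4694 CPM. Of 21 mechanosensing and cytoskeleton genes 11 were higher and 2 lower, with a median of 1.09. Besides Ccn2 they included Ccn1 at 596 against 241 CPM, and Itga10 and Itga2, which encode subunits of collagen receptors, at 16.5 against 2.83 CPM and 61.4 against 14.4 CPM. The integrin partner Itgb1 was within 2-fold, at 403 against 317 CPM. Acta2 at 134 against 41.8 CPM and Tagln at 100.01 against 43.2 CPM are also smooth muscle markers, and 16.6% of the Acta2 UMIs lay in 1 member.

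Of 17 elastic fibre genes 2 were higher, 7 lower and 8 within 2-fold, with a median of -0.50. The microfibril genes Fbn1 and Mfap5 stood at 313 against 1354 CPM (-2.11, -2.17 to -2.06) and 256 against 1151 CPM (-2.17, -2.23 to -2.11), and Efemp1 at 25.8 against 219 CPM. Mfap4, which also binds elastic fibres, was higher, at 725 against 183 CPM (1.98, 1.93 to 2.04), and Fbln1 was within 2-fold, at 395 against 289 CPM.

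Of 19 cartilage genes 7 could be compared, 4 higher and 2 lower, with a median of 3.65. Sox6 stood at 133 against 9.57 CPM (3.80, 3.62 to 3.98), whereas its partner Sox5 stood at 128 against 330 CPM and Sox9, the cartilage master regulator, had a log2 ratio of -1.74. Acan, the main cartilage proteoglycan, stood at 1.22 CPM in the tenocytes and was too low to compare.

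Of 13 sheath and progenitor genes 2 were higher and 7 lower, with a median of -1.05. Prg4, the lubricating proteoglycan of gliding surfaces, was the higher gene of highest level, at 1918 against 334 CPM (2.52, 2.49 to 2.56). The hyaluronan synthase genes Has1 and Has2 stood at 98.5 against 666 CPM and 14.5 against 107 CPM, and Cd55 at 23.5 against 170.0 CPM. Ly6a and Cd34, both used to mark stem-like stromal cells, had log2 ratios of -2.42 and -2.33, and the sheath progenitor marker Tppp3 of -1.50. Cd44, the hyaluronan receptor, stayed within 2-fold at 233 against 319 CPM.

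Among 20 matrix proteases and inhibitors 2 were higher and 7 lower, with a median of -0.71. Adamts12 stood at 32.1 against 166 CPM and the stromelysin gene Mmp3 at 43.0 against 215 CPM. Mmp13 came out higher at 24.1 against 3.18 CPM, but 188 of its 218 UMIs, or 86.2%, lay in 1 member. Timp2, Timp3 and Mmp2 were within 2-fold, at 1356 against 1018, 632 against 327 and 512 against 600 CPM.

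Of 23 TGF-beta, BMP and GDF genes 5 were higher, 2 lower and 16 within 2-fold, with a median of 0.29. The BMP receptor gene Bmpr1b stood at 189.7 against 11.4 CPM (4.06, 3.90 to 4.22) and its ligand family member Bmp5 at 123 against 33.9 CPM, while Gdf10 stood at 28.7 against 168 CPM. Of 22 FGF, IGF and PDGF genes 3 were higher, 5 lower and 14 within 2-fold, with a median of -0.38. The ligand genes Fgf9 and Pdgfa stood at 21.5 against 1.84 CPM and 116 against 11.3 CPM, and Fgf7 at 20.6 against 104 CPM. Of 10 Wnt modulators 1, Wif1, was higher and 7 were lower, with a median of -1.38. The secreted antagonists Sfrp1 and Sfrp2 stood at 26.5 against 189 CPM and 86.3 against 187 CPM, and the Wnt enhancer gene Rspo3 at 2.77 against 17.3 CPM.

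Of 18 inflammatory genes 13 were lower and 3 higher, with a median of -1.52. Complement C3 stood at 364 against 1730 CPM (-2.25, -2.30 to -2.20), the eosinophil chemokine gene Ccl11 at 43.0 against 345 CPM (-3.00, -3.15 to -2.86) and Cxcl14 at 349.8 against 1526 CPM (-2.13, -2.18 to -2.07). Il6 had a log2 ratio of -2.14 and the prostaglandin synthase gene Ptgs2 of -2.21. The higher genes were Tnfrsf11b, the decoy receptor osteoprotegerin, at 13.4 against 1.02 CPM, Lcn2 at a log2 ratio of 2.09 and Saa3 at 1.42, with 42.5% of the Saa3 UMIs in 1 member. Ccl2 was within 2-fold, at 495 against 648 CPM.

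Nerve-related genes went in both directions. Of 14 nerve and synapse trophic genes 3 were higher and 3 lower, with a median of -0.54. Sema3a, a secreted axon repellent, stood at 222 against 14.3 CPM (3.96, 3.81 to 4.10) and Ptn, the neurite growth factor pleiotrophin, at 248 against 53.0 CPM (2.23, 2.14 to 2.32). Sema3e stood at 11.4 against 52.0 CPM and Slit3, another guidance cue, at 396 against 1104 CPM. Of 9 genes of osteopontin signalling 0 were higher and 2 lower, with a median of -0.04. Spp1 itself, osteopontin, stood at 112 against 103 CPM, with 20.0% of its UMIs in 1 member. It stood at 78.1 against 103 CPM when 6 UMIs over 3 gate genes were required. At 5000 UMIs or more it stood at 59.8 against 47.2 CPM, and under 5% mitochondrial UMIs at 129 against 88.5 CPM. The receptor subunit gene Itgb3 stood at 3.10 against 17.0 CPM.

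Of 19 immediate early and stress genes 0 were higher and 1 lower, with Fos at 2785 against 1838 CPM and Nr4a1 at 196 against 397 CPM. Of 8 cell cycle genes none passed 2-fold, and Mki67 was found in 3.09% of thinned tenocytes and 3.61% of fibroblast-gate cells. Of 14 hypoxia and glycolysis genes 0 were higher and 3 lower, with Hk2 at 118 against 468 CPM and Vegfa at 34.6 against 93.7 CPM. Of 18 secretory pathway genes none passed 2-fold, although the median was 0.21 and the translocon gene Sec61b reached 551 against 288 CPM (0.93, 0.88 to 0.98).

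**Figure D3:**
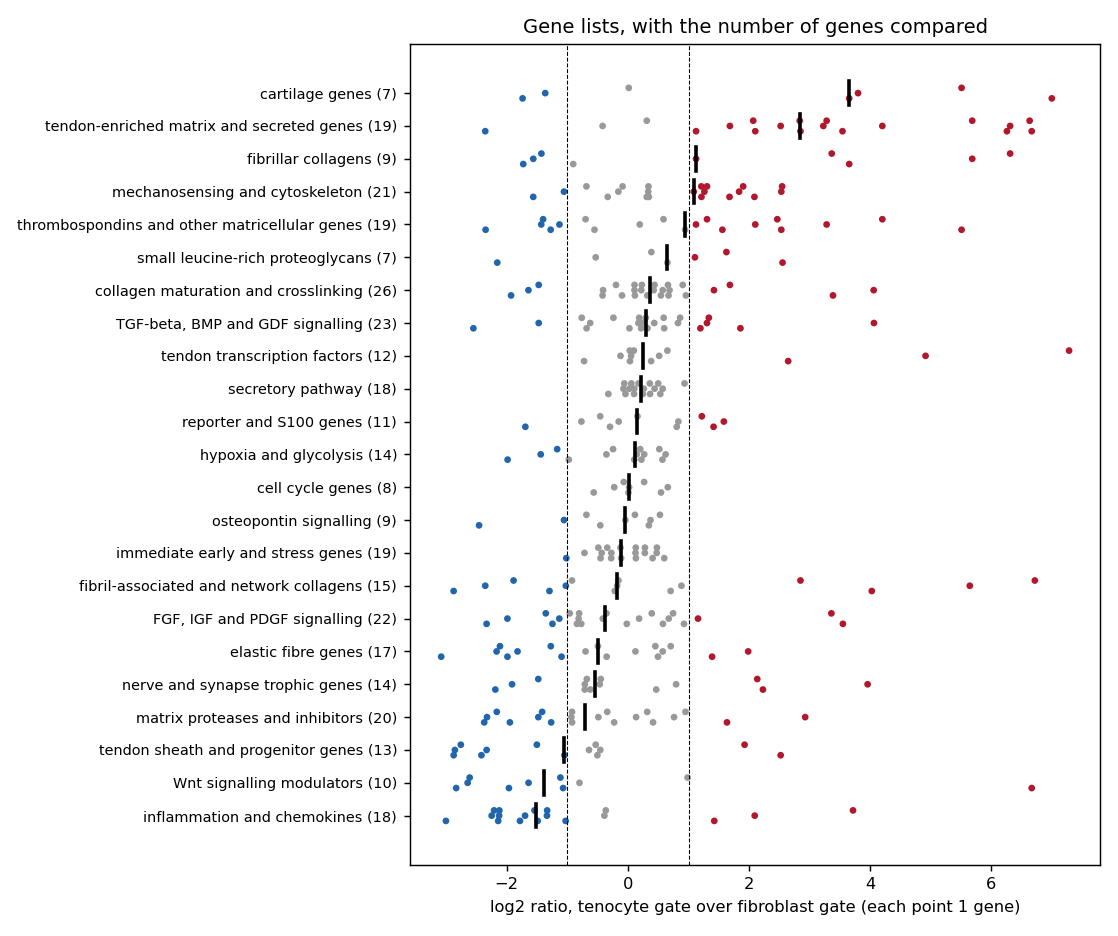
Log2 ratio of tenocyte to fibroblast gate for each compared gene of the lists, 1 row of points a list, with a black bar at the list median and dashed lines at 2-fold. Tendon matrix genes lie mostly to the right, with a median of 2.85, and inflammatory genes mostly to the left, with a median of -1.52. The lists were chosen with earlier results of these data known.

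The reporter and the gene whose promoter drives it went in opposite directions. The Gfp transcript stood at 296 CPM in the tenocytes and 169 CPM in the fibroblast gate, a log2 ratio of 0.81 (0.74 to 0.87), within 2-fold. At 5000 UMIs or more the levels were 299.7 and 136.4 CPM, a log2 ratio of 1.14 (1.05 to 1.22), past 2-fold. S100b stood at 3.99 CPM, from 36 UMIs, and 12.9 CPM, a log2 ratio of -1.69 (-2.23 to -1.20). After thinning, Gfp was found in 35.8% of tenocytes, 30.5% of fibroblast-gate cells, 45.0% of macrophages and 6.82% of endothelial-gate cells, and S100b in 0.679%, 2.05% and 0.30% of the first 3 and in 0 of 132 endothelial-gate cells, where the upper limit for the share with a UMI was 2.76%. Of 11 reporter and S100 genes 3 were higher and 1 lower. S100a4, a calcium-binding protein gene common in stromal cells, stood at 1125 against 376 CPM (1.58, 1.55 to 1.62), S100a6 at 3563 against 3196 CPM and S100a10 at 714 against 876 CPM. S100a9, a neutrophil gene, stood at 25.5 against 9.57 CPM, with 40.4% of its UMIs in 1 member.

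The fibroblast gate was also split into an adventitial pool of 1403 cells, chosen by Pi16, Dpp4, Sema3c and Anxa3, and a parenchymal pool of 2203 cells, chosen by Smoc2, Cxcl14, Hsd11b1 and Col15a1. All 3 comparisons share the tenocytes, and the narrower pools are drawn from the fibroblast gate. Against the adventitial pool 715 of 9286 genes were at least 2-fold higher, 7.7%, and 777 lower, 8.37%, with a median log2 ratio of 0.05. Against the parenchymal pool 474 of 9265 genes were higher, 5.12%, and 603 lower, 6.51%, with a median of 0.03. Of the 19 tendon matrix genes 17 were higher against the adventitial pool and 16 against the parenchymal pool, with medians of 3.68 and 2.80. Inflammatory genes were lower for 10 of 17 and 11 of 16 genes.

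Ptx4 had log2 ratios of 7.05 and 7.04 against the adventitial and the parenchymal pool, Angptl7 of 6.21 and 6.34, and Col22a1 of 7.64 and 7.32. Thbs4 differed more from the adventitial pool, at 6.25 (6.16 to 6.34), than from the parenchymal pool, at 3.52 (3.48 to 3.55), and Ccn2 likewise, at 4.38 and 1.78. Some genes lay between the 2 pools, among them Apod at 1.87 and -1.10 and Bgn at 0.92 and -1.19. Cxcl14 had ratios of 2.24 and -3.07, but it helped choose the parenchymal pool, so these are a description. The genes furthest below the adventitial pool were Ackr2, a chemokine scavenger gene, at -6.17 and Clic6 at -5.82, and those furthest below the parenchymal pool were Nipal1 at -6.56 and Fetub at -6.11. Etv4 stood at a log2 ratio of 4.99 (3.91 to 6.32) over the adventitial pool and 1.88 (1.49 to 2.28) over the parenchymal pool.

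The members were not uniform. Clustering them on their own variable genes gave 10 subsets, and because the clusters come from these genes their leading genes are a description. In 3 subsets, numbered 2, 4 and 6 by size, the median cell held over 5000 UMIs, and these are called the deep subsets. They held 439 cells, or 33.1% of the members, with a median of 10156 UMIs and 52.4% of all UMIs. The remaining 886 cells, in 7 subsets of 36 to 404 cells, had a median of 2956 UMIs.

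The deep subsets had the lowest macrophage signal. The 12 macrophage markers summed to 245, 261 and 289 CPM in subsets 2, 4 and 6, against 15928 CPM in subset 1, the largest, and 13782 CPM in subset 5. Lyz2 stood at 82.2 CPM in the deep subsets together and 3536 CPM in the other members, and C1qa at 26.6 and 1138 CPM. Spp1 divided in the same way, at 5.49 CPM in the deep subsets and 229 CPM in the other members. The other subsets carried genes of further cell types. Subset 3, of 168 cells, was led by Cxcl5, for which 96.4% of the members' UMIs lay in 1 cell, Zfp804b and Phex, and held Pdgfra at 357 CPM, Dpt at 768 CPM and Pi16 at 367 CPM beside Tnmd at 419 CPM. Subset 7, of 56 cells, held Myh11 at 1192 CPM, for which 42.7% of the members' UMIs lay in 1 cell, and smooth muscle markers summing to 5103 CPM. Subset 9, of 38 cells, was led by S100a9 and S100a8 and held erythroid and neutrophil markers summing to 70432 CPM. In subset 8, of 41 cells, the leading gene Myog rested on 4 UMIs, and the satellite cell and muscle fibre markers summed to 356 CPM, below the 595 CPM of subset 1. Subset 10, of 36 cells, held the macrophage chemokine gene Ccl24 at 1489.8 CPM.

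Pooled over the deep subsets several tendon genes stood higher than in the other members. Thbs4 and Mkx were present in all 10 subsets. So was Tnmd, but it is a gene of the rule that chose the members, so its presence is a description. Tnmd stood at 1648 CPM in the deep subsets together and between 235 and 683 CPM in the other 7. Thbs4, which the rule did not use, stood at 9079.5 CPM and between 1815 and 4070 CPM. Mkx stood at 303 CPM and between 69.0 and 181 CPM. Subset 6 did not share this for every gene, since its Mkx level of 161 CPM lay inside the range of the other 7 subsets, and its 6 gate genes summed to 2891.5 CPM, below the 3381.6 CPM of subset 1 and the 3107 CPM of subset 7. Collagen III, from Col3a1, was the reverse, at 950.2 CPM in the deep subsets and 2937 CPM in the other members. How much of the RNA in these 886 barcodes came from tenocytes was not tested.

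**Figure D4:**
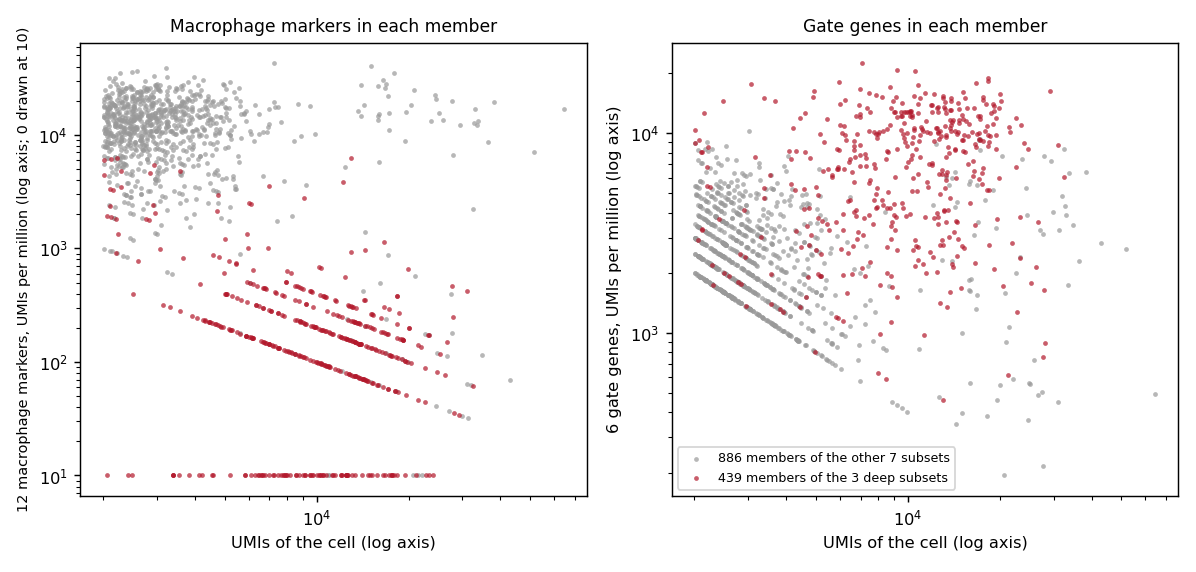
Each of the 1325 members by its UMIs (horizontal, log axis) against macrophage markers (left) and gate genes (right), both in UMIs per 1000000 UMIs of the cell on log axes; red points are the 439 cells of the deep subsets, grey points the other 886, and cells with no macrophage marker are drawn at 10. Most red cells lie low on the left and high on the right, and red cells of few UMIs overlap the grey ones.

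The lists were compared again with only the deep subsets set against the fibroblast gate, where 815 of 9456 genes were higher, 8.62%, and 1454 lower, 15.4%, with a median of -0.009. The macrophage markers summed to 245 to 289 CPM in these subsets and to 4937 CPM in the fibroblast gate, which here includes all depths. In fibroblast-gate cells of 5000 UMIs or more they summed to 2090 CPM, and Spp1 stood at 47.2 CPM, compared with 103 CPM over all depths. The part of depth and of macrophage RNA in the counts was not tested. Inflammatory genes had 15 of 18 lower and 3 higher, with a median of -3.21, and tendon matrix genes 16 of 19 higher and 1 lower, with a median of 3.36. Osteopontin signalling had 6 of 9 lower, against 2 of 9 with all members, with a median of -1.29, while the share of lower genes over all genes was itself larger than the 6.84% with all members, and Spp1 had a log2 ratio of -4.23. Gfp kept a log2 ratio of 0.92 there. Mechanosensing genes had 10 of 21 higher and 3 lower, Wnt modulators 3 of 11 higher and 7 lower, and cell cycle genes 2 of 10 higher and 1 lower.

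The 3 deep subsets held Tnmd and Thbs4 at levels within 2-fold of each other and differed more in other genes. Tnmd stood at 1664, 1750 and 1409 CPM in subsets 2, 4 and 6, and after thinning it was found in 93.5%, 89.0% and 81.4% of their cells. Thbs4 stood at 9105, 10197 and 6957 CPM and was found in 100%, 99.4% and 97.1% of cells. Scx stood at 384, 520 and 663 CPM and Col11a1 at 792, 953 and 1061 CPM. Mkx stood at 391, 217 and 161 CPM.

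Subset 2, the largest of them with 215 cells, held the highest level of Chad, Comp, Wif1, Angptl7 and Prg4. Chad stood at 3342, 1077 and 77.4 CPM in subsets 2, 4 and 6, and Comp at 2477, 1326 and 118 CPM. Wif1 stood at 1344, 293 and 19.7 CPM and was found in 82.3%, 16.9% and 8.57% of thinned cells. Angptl7 stood at 5288, 1279 and 179.7 CPM, found in 95.8%, 50.0% and 17.1%, and Prg4 at 4315, 1221 and 229.6 CPM. The chaperone gene Clu stood at 335, 17.3 and 10.5 CPM, Bmpr1b at 446, 56.1 and 6.56 CPM and Sema3a at 499, 205 and 17.1 CPM. Its leading genes against the other members were Saa1, Ooep, Adig, Wfdc2, Chil1 and Sox2ot. Saa3 also stood high there, but 66.2% of its UMIs in this subset lay in 1 cell.

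Subset 6, of 70 cells, was the opposite end. Col22a1 stood at 2.32, 225 and 1120 CPM in subsets 2, 4 and 6, and after thinning it was found in 0 of the 215 cells of subset 2 (upper limit 1.70%), 19.5% of subset 4 and 64.3% of subset 6. Ptx4 stood at 86.0, 234 and 432 CPM, Ptn at 52.7, 459 and 1307 CPM and Etv4 at 4.65, 23.0 and 106 CPM. Pip5k1b, a phosphoinositide kinase gene, stood at 4.65, 25.9 and 262 CPM, and the neurotrophin gene Bdnf at 7.75, 15.1 and 95.8 CPM. The leading genes of subset 6 against the other members were Depdc1a, Pdc, Mtnr1b, Hmmr, Cdkn3 and Pbk, several of which belong to cell division, and 50.6% of its UMIs of the topoisomerase gene Top2a lay in 1 cell.

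Subset 4, of 154 cells, lay between them for most of these genes and stood apart in others. Aspn, the small proteoglycan asporin, stood at 32.5, 1864 and 475 CPM in subsets 2, 4 and 6, found in 3.72%, 63.0% and 45.7% of thinned cells, and Cthrc1, a secreted collagen-associated protein gene, at 70.5, 469 and 35.4 CPM. Col3a1 stood at 307, 1798 and 1582 CPM. The leading genes of subset 4 were Mmp13, Lpar3, Kcnmb2, Prss35, Syndig1 and Aspn, of which Mmp13 came from 1 cell, and 95.8% of the Hbb-bs UMIs in this subset also lay in 1 cell.

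Further genes included the reporter. Gfp stood at 373, 269.9 and 234 CPM in subsets 2, 4 and 6 and was found in 40.5%, 33.1% and 24.3% of thinned cells. Col1a1 stood at 16337, 8658 and 5876 CPM, Lox at 1129, 798 and 165 CPM and the IGF-binding protein gene Igfbp5 at 931, 153 and 14.4 CPM. Col12a1 stood at 893, 960.2 and 707 CPM and Sox6 at 204, 166 and 224 CPM, so that these 2 genes had no such order. Ccn2 stood at 2208, 2598 and 1564 CPM.

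The borders of the subsets depended on the clustering. At a coarser resolution of 0.3 all 215 cells of subset 2 stayed together, all 154 cells of subset 4 were joined by 56 of subset 6, and the other 14 cells of subset 6 formed a group led by Ccnb1, Depdc1a and Hist1h2an. At a finer resolution of 1.0 the count of subsets was 15, 214 of the 215 cells stayed together, and 51 cells of subset 4 joined 56 cells of subset 6. When the members of 5000 UMIs or more were clustered alone, subset 2 divided into groups of 130 and 64 cells, with 1 cell elsewhere, and the group with its 64 cells also took 33 cells of subset 4.

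**Figure D5:**
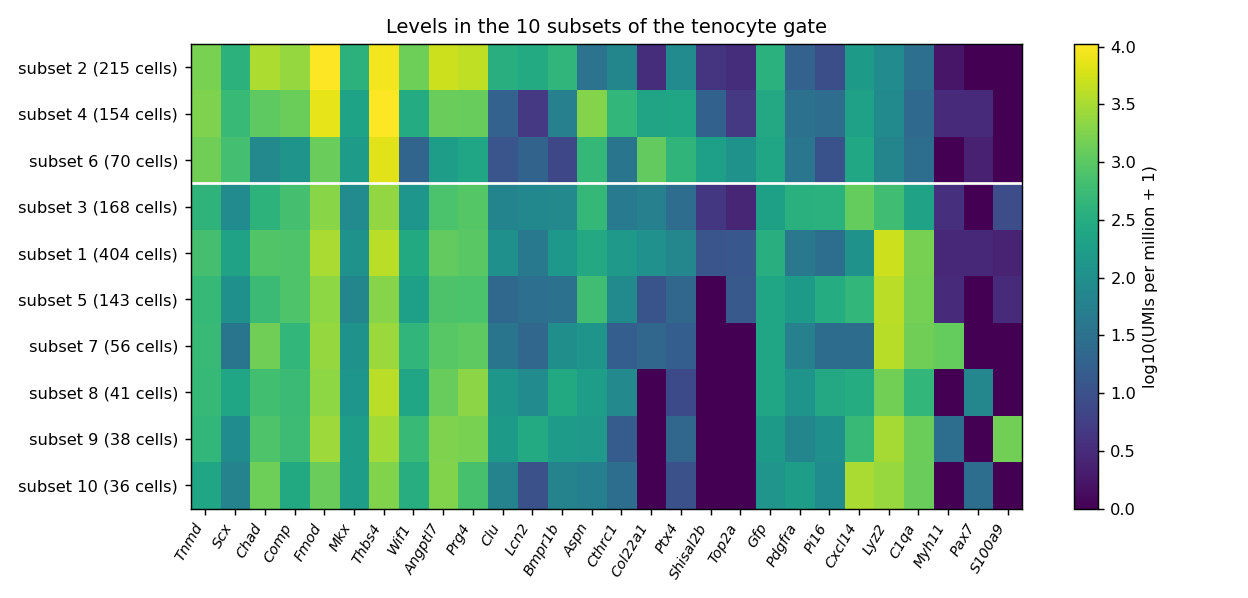
Heat map of gene levels (columns) in the 10 subsets (rows), coloured by log10 of CPM plus 1, with the deep subsets 2, 4 and 6 above the white line and the other 7 below it. Chad, Wif1 and Angptl7 are lower in subset 6 than in subset 2 and Col22a1 is higher, at 1120 against 2.32 CPM, while Lyz2 is brightest below the line.

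A split by the marker Tnmd gave 907 members with a Tnmd UMI after thinning, at a median depth of 4534 UMIs, and 418 without, at a median of 3034. The split rests on a gene of the rule and is a description. Mkx stood at 242 and 103 CPM, Thbs4 at 7201 and 3413 CPM, Wif1 at 648 and 232 CPM and Col11a1 at 739 and 279.6 CPM. Pdgfra stood at 56.1 CPM in members with Tnmd and 164 CPM in those without, a log2 ratio of -1.55 (-1.76 to -1.34), Cxcl14 at 236 and 703 CPM and C3 at 279.97 and 625 CPM. Lyz2 also differed, at 1441 and 2611 CPM, and the members without Tnmd were shallower, and the part of depth and of other cells' RNA in these differences was not tested. Gfp stood at 312 and 245 CPM (0.35, 0.21 to 0.49).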

How the data were processed

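GFP+ and GFP- cells were sorted and sequenced with a droplet 3' kit, and the authors deposited the UMI counts per gene and barcode as a filtered matrix. Per the labels they were made with Cell Ranger 7.1.0 on build mm10 and analysed in Seurat 4.30. The matrix header names Cell Ranger 8.0.1, so the version and the build are uncertain. Of the GFP- library, 39531 barcodes and no counts were used.

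From the counts of the GFP+ library (170648616 UMIs, 36400 barcodes, 32287 features) members and other gates were selected with scanpy 1.11.5 and scipy 1.17.1 under python 3.11.15. UMIs were summed per gate and divided by the pool's total (CPM), without correction for gene length. A gene was called at 2-fold or more. With 1 library no test was possible. Clusters used 1000 variable genes, 15 components, 20 neighbours and Leiden resolution 0.5.

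Doublets were kept in the main results. Scrublet called 0 with its own threshold, so an alternative removed the top 1381 scores (7.43% of eligible barcodes), 87 of them members. The genes named were those of the gates, the 12 highest and 12 lowest ratios, up to 6 genes of each list by level and by ratio, Gfp, S100b and 6 leading genes of each subset, and all others were chosen after their values were seen. The members, gates and lists were chosen with earlier results of these data known. Alternatives changed the depth, mitochondrial, gate, level and doublet limits, subtracted the library's mean profile (scaled to bring the macrophage markers to 0), or averaged over cells.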

Additional observations from a re-analysis of the deposited data

How the results depend on the processing

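The count of tenocytes followed the limits set, and the contrast with fibroblasts kept its direction for most of the named genes that were past 2-fold. The share of 7.13% became 5.94% at 5000 UMIs or more, 6.50% under 5% mitochondrial UMIs, 5.12% with 6 UMIs over 3 gate genes, 6.72% with gate genes at 0.1% of UMIs or more and 2.36% in the deep subsets alone, an alternative chosen after seeing the data. The summed level of the 5 markers, 4851 CPM, became 5677, 4474, 5565 and 5311 CPM under the same 4 limits, 4897.5 CPM without predicted doublets, 7004.5 CPM in the deep subsets, 6593 CPM after subtraction of the library's mean profile, scaled to bring the macrophage markers to 0, which took 28.0% of the members' UMIs and 25.1% of those of the fibroblast gate, and 3824 CPM as a mean over cells.

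The 486 higher and 634 lower genes against the fibroblast gate became 815 and 1454 with the deep subsets, 743 and 1050 after subtraction, 196 and 322 at 50 CPM or more, and 2633 and 1962 with no minimum level, and the lower genes became 422 as a mean over cells. Against the adventitial pool 1471 were lower with the deep subsets, and against the parenchymal pool 715 were higher and 1323 lower with the deep subsets and 967 lower after subtraction. The share with Tnmd, 68.5%, was 47.6% at 1000 UMIs and 80.5% unthinned. The 10 subsets became 6 when members of 5000 UMIs or more were clustered alone, also chosen after seeing the data. At 50 CPM or more 3703 genes were compared and with no minimum level 20191, so those counts rest on other totals. Thinning to fewer UMIs lowers the share with Tnmd by design. The causes of the other shifts were not tested.

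Of 343 named genes 163 were past 2-fold, and 136 of these stayed past it in the same direction under all 8 alternatives. The ratio of Mmp13 changed sign to -0.052 with gate genes at 0.1% of UMIs or more, and that of S100a9, which held no UMI in the deep subsets, to at most -3.92 there, a bound set by a floor of 3 UMIs. Spp1, within 2-fold at 0.12, stood at 0.34 at 5000 UMIs or more, 0.54 under 5% mitochondrial UMIs and 0.039 without predicted doublets. It stood at -0.00015 with gate genes at 0.1% of UMIs or more, -0.40 with 6 UMIs over 3 gate genes and -4.23 with the deep subsets. The deep subsets were set against fibroblast-gate cells of all depths, at 103 CPM of Spp1, while those of 5000 UMIs or more stood at 47.2 CPM. No paired analysis was possible because there was 1 library. Depth limits the low genes, and S100b rested on 36 UMIs.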

Other observations

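After subtraction of the library's mean profile, which holds RNA of every cell type and was scaled to bring the macrophage markers to 0, Gfp stood at 279 CPM in the tenocytes and 112 CPM in the fibroblast gate, S100b at 3.65 and 15.6 CPM, Spp1 at 50.9 and 47.6 CPM, and the chemokine genes Ccl2 and Ccl7 at 21.2 against 289 CPM and 37.4 against 212 CPM. Before subtraction Ccl2 stood at 495 and 648 CPM.

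Subset 6 also held the highest levels among the deep subsets of Stmn1, a microtubule regulator, at 0.775, 6.48 and 159 CPM in subsets 2, 4 and 6, and of Shisal2b, at 3.10, 16.6 and 189 CPM. Subset 2 held Ndufa4l2 at 546 CPM and subsets 4 and 6 together at 53.0 CPM. Tppp3, the sheath progenitor marker, stood at 6.97, 66.2 and 35.4 CPM and Mfap5 at 63.5, 292 and 119 CPM. These genes were chosen after their values were seen.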
